A study of Mus musculus with 6 samples.

Results

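The genes described here are those of the insulin and insulin-like growth factor (IGF) axis at the cell surface: the ligand gene Igf1, the receptor genes Insr and Igf1r, the adaptor genes Irs1 and Irs2, and the IGF-binding protein genes Igfbp2, Igfbp3, Igfbp4, Igfbp5 and Igfbp7. They were taken by symbol, and all 10 were present among the 11736 genes listed for each library. Transcript levels came from the somatic cells of gonads of male (XY) C57BL/6 mouse embryos at stage E11.5, the stage at which the gonad becomes committed to testis or ovary. There were 3 libraries from gonads heterozygous for a Cdyl deficiency (Cdyl-Het, Nr5a1-hCD271) and 3 from gonads homozygous for it (Cdyl-KO, Nr5a1-hCD271). Both groups carried Nr5a1-hCD271, a surface marker by which the somatic cells were isolated with magnetic beads, and the heterozygous group, which served as the reference, also lacked Cdyl function in part. Cdyl encodes a chromodomain protein that acts in repressive chromatin. Which form of mutation was used was not stated in the labels. The labels do not say whether the libraries came from separate embryos, litters or pools, so the p-values measure the spread between these libraries, which may be technical.

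As background, insulin and the IGFs bind receptor tyrosine kinases encoded by Insr and Igf1r, which phosphorylate the insulin receptor substrates (IRS proteins) and thereby activate the PI3K-AKT and MAPK pathways. The secreted IGF-binding proteins hold IGFs in the extracellular space, and most of them bind IGFs more tightly than the receptors do, so they can limit or prolong signalling. In mice, loss of Insr together with Igf1r impairs the expansion of gonadal somatic cells and the rise of Sry and Sox9, and XY gonads can then develop as ovaries.

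Levels are given as scaled RPKM (RPKM, a read density corrected for gene length and library depth, divided by a scaling factor per library), and differences as Cdyl-KO minus Cdyl-Het on the log2(scaled RPKM + 1) scale, on which changes of weakly expressed genes come out too small. A gene was called changed at a limma p under 0.05 after Benjamini-Hochberg adjustment over all 11736 genes. The depth implied by the steps between low values was 34.6 to 45.2 M reads per library; 63.7% to 69.9% of the whole values were even, so the number of separate fragments may be lower. The targeted gene Cdyl was at 7.78 to 8.27 scaled RPKM in Cdyl-Het and 6.77 to 7.01 in Cdyl-KO, without passing the threshold (log2 difference -0.19, limma adjusted p = 0.0635), although it passed as lower in the fit of unscaled values (-0.32, adjusted p = 0.0145); reads outside an altered part of the gene would not check the labels. Nr5a1, the gene behind the marker used for isolation, was at 78.6 to 93.7 in Cdyl-Het and 70.6 to 84.3 in Cdyl-KO. Its groups overlapped (log2 difference -0.15, limma adjusted p = 0.349). Of 8 germ cell markers 3 were listed, and they summed to 5.82 to 7.38 in Cdyl-Het and 5.67 to 5.75 in Cdyl-KO. None of these 3 passed the threshold, and 3 of 3 log2 differences were below 0. Sry, the testis-determining gene of the Y chromosome, was at 25.1 to 28.3 in Cdyl-Het and 32.6 to 36.9 in Cdyl-KO (adjusted p = 0.0211), a call lost at 0.0697 and 0.0754 without Cdyl-Het replicates 2 and 3 and at 0.0746 and 0.0642 without Cdyl-KO replicates 1 and 3. All 10 genes had group means above the 1.005 RPKM that every listed gene reached in at least 1 group, so none of them was listed through only 1 group.

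Of the 10 genes, Igfbp2 and Igfbp5 rose in Cdyl-KO, 0 fell and 8 did not pass the threshold. Across all genes, 7.92% were called, 4.82% as higher and 3.09% as lower. The median log2 difference of the 10 genes was 0.11, against -0.00 for all genes, which were not matched in level. The 2934 genes with the lowest levels had a median of -0.09 and the 2934 genes with the highest levels 0.06. Irs2, Igfbp2, Igfbp3, Igfbp4 and Igfbp5 are among those with the highest levels. Before scaling, the median of all genes was -0.12, and all changes given here are relative to that shift. In 6 of the 10 genes the 3 Cdyl-KO values did not overlap the 3 Cdyl-Het values, 5 of them higher and 1 lower, where 31.8% of all genes showed no overlap, 16.8% as higher and 15% as lower. These counts hold for scaled values. On unscaled values, the groups of Igf1, Igf1r and Igfbp4 overlapped.

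**Figure D1:**
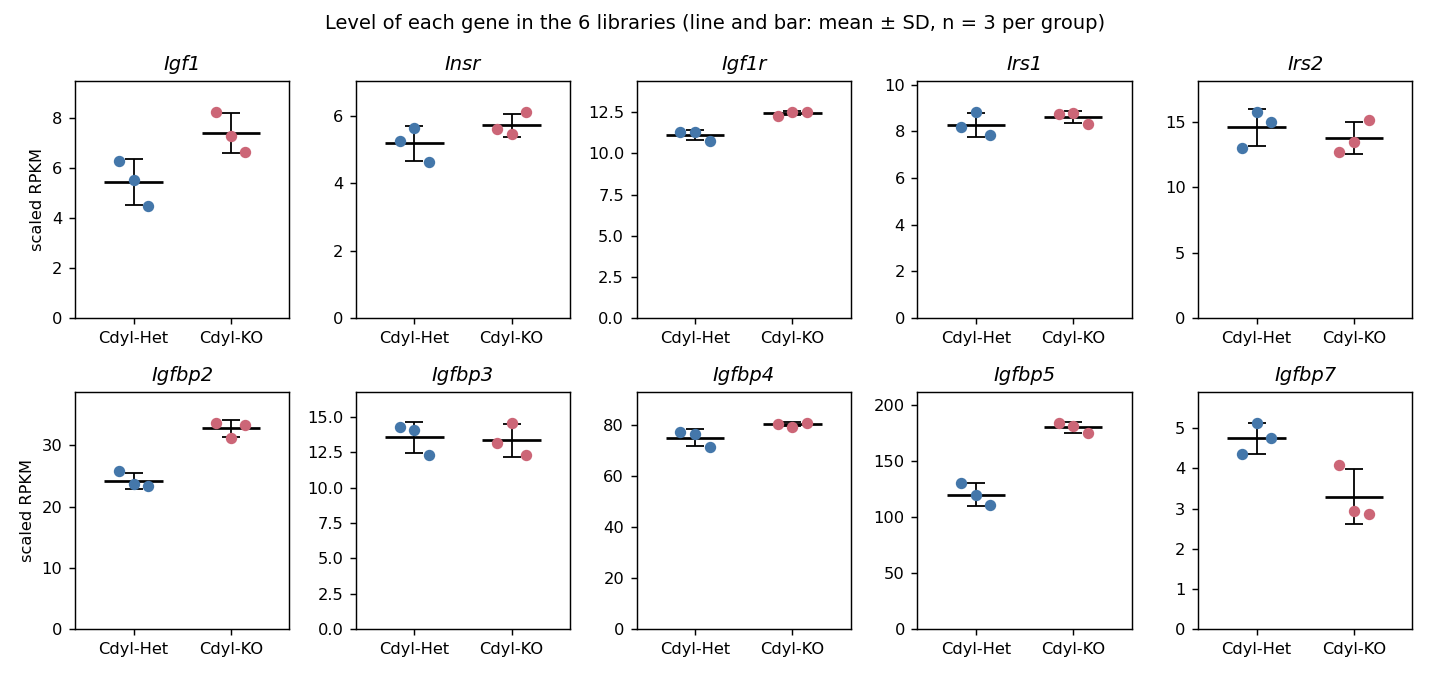
Level of each of the 10 genes in scaled RPKM (vertical axes from 0, a different scale in each panel) in the 3 Cdyl-Het and 3 Cdyl-KO libraries; points are libraries, horizontal lines the means and bars the SD. The Cdyl-KO points of Igfbp5 lie at 174 to 184, above the Cdyl-Het points at 110 to 130, while the points of Irs1, Irs2, Insr and Igfbp3 overlap between groups.

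Igfbp5 encodes a binding protein that attaches to the extracellular matrix and to IGFs, and its transcript had the highest level per length of the 10. It was at 130, 119 and 110 scaled RPKM in Cdyl-Het replicates 1, 2 and 3 and at 184, 181 and 174 in Cdyl-KO replicates 1, 2 and 3. All Cdyl-KO libraries were high, and the lowest of them lay well above the highest Cdyl-Het library. The mean rose from 120 ± 10.2 to 180 ± 4.84 (SD, n = 3 per group), which is 50.1% above the Cdyl-Het level (log2 change 0.59, SE 0.07, limma adjusted p = 0.00826). Igfbp2, which encodes an abundant binding protein of fetal tissues, was at 25.7, 23.6 and 23.3 in Cdyl-Het and at 33.7, 31.2 and 33.4 in Cdyl-KO. The groups were again apart, with the Cdyl-KO libraries high. Its mean rose from 24.2 ± 1.32 to 32.8 ± 1.34, or by 35.2% (log2 change 0.42, SE 0.06, limma adjusted p = 0.0105). Both genes kept their call in each of 14 alternative fits, with log2 changes of 0.39 to 0.65 for Igfbp5 (adjusted p = 0.00759 to 0.0419) and 0.28 to 0.46 for Igfbp2 (adjusted p = 0.0100 to 0.0462). The lowest value of Igfbp5 came from quantile normalization, which removes the shift between libraries that goes with level. It took Igfbp5 from 0.59 to 0.39 and Igfbp2 from 0.42 to 0.34. The 2934 genes with the highest levels, which include both genes, had a median log2 difference of 0.06. Igfbp5 had a higher level than 98.8% of genes, so this median may understate the shift at its level.

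The 2 genes that rose are neighbours. In GENCODE M21 on GRCm38 (mm10), Igfbp2 lies on the plus strand of chromosome 1 at 72824503 to 72852474 and Igfbp5 on the minus strand at 72857932 to 72874884, so that their 3′ ends face each other across 5457 bases. Their start sites are at opposite ends of the pair. The next protein-coding genes outside the pair did not pass the threshold: Rpl37a, a ribosomal protein gene 110689 bases below Igfbp2, was at 70.0 and 71.6 (group means, adjusted p = 0.894), and Tnp1, a transition protein gene 140189 bases above Igfbp5, was at 2.42 and 1.75 (adjusted p = 0.509). Exons of Igfbp2 and Igfbp5 overlap those of no other annotated gene. Among the listed neighbours of 7 of the other genes (those of Insr were not examined), only Tns3, a tensin gene 1217728 bases from Igfbp3, passed the threshold (46.2 and 56.4, log2 change 0.28, adjusted p = 0.0381). It did not pass when any library was left out (adjusted p = 0.0620 to 0.112). Nor did it pass without scaling (0.117), with quantile normalization (0.125), without a variance trend (0.0564) or with the replicate number as a block (0.118). The RefSeq promoters of both (GRCm38.p6, 250 bases before the annotated start) are printed because these 2 genes moved together, for Igfbp2 that of the more upstream of 2 annotated starts; capitals mark CG dinucleotides.
Igfbp2, plus strand, chr1:72824230-72824479: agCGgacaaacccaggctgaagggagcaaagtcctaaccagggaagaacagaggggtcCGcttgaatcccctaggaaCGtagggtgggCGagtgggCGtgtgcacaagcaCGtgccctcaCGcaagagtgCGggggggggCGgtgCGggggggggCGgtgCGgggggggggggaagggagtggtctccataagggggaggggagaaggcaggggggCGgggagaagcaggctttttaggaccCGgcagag
Igfbp5, minus strand, chr1:72874866-72875115: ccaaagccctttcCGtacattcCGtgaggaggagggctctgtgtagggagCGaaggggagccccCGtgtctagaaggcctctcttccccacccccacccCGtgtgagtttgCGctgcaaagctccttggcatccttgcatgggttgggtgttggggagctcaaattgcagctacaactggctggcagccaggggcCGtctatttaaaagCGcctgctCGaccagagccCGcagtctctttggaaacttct
The Igfbp2 window holds 14 CG dinucleotides and 67.2% G or C, and the Igfbp5 window 10 and 58.8%, against medians of 6 and 52.4% over 32851 RefSeq promoter windows of the same length. Of all windows, 29.4% hold at least as many CG as that of Igfbp2, and 64.4% at most as many as that of Igfbp5. The windows of Igf1r (42), Irs2 (34), Igfbp3 (32), Irs1 (28), Igfbp7 (26) and Igfbp4 (22) hold more CG than both, and that of Igf1 (5) fewer. The letters GGGCGG, on either strand, occur 3 times in the Igfbp2 window and 0 times in that of Igfbp5, and 32.7% of all windows hold them. The windows of Igfbp7 (4), Igf1r (2), Irs1 (2) and Irs2 (1) hold them too, and those of Igf1, Igfbp3 and Igfbp4 do not. The window before the other Igfbp2 start holds 11 CG dinucleotides and GGGCGG 0 times. TATAAA (in 12.4% of all windows) and TGTTTAC (in 3.2%), searched on both strands, are in neither. Only exact matches were counted, so similar letters in these windows were not searched for.

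The other 3 binding protein genes did not pass the threshold. Igfbp4, which encodes a binding protein that inhibits IGF action until the protease PAPP-A cleaves it, was at 77.4, 76.7 and 71.5 scaled RPKM in Cdyl-Het and at 80.7, 79.5 and 81.1 in Cdyl-KO. The groups did not overlap, but the means, 75.2 ± 3.23 and 80.4 ± 0.812 (SD, n = 3 per group), lay close together (log2 difference 0.10, 95% interval -0.02 to 0.22, limma adjusted p = 0.288). Without scaling and with quantile normalization the sign of this difference turned, to -0.04 in both. Before scaling the groups overlapped, at 75.5 to 80.9 in Cdyl-Het and 75.8 to 77.0 in Cdyl-KO. Igfbp3, which encodes the main IGF carrier of the blood, was at 14.3, 14.1 and 12.3 in Cdyl-Het and at 13.2, 14.6 and 12.3 in Cdyl-KO. Its groups overlapped throughout, at means of 13.6 ± 1.08 and 13.4 ± 1.17 (log2 difference -0.02, 95% interval -0.21 to 0.17, adjusted p = 0.899). Both genes lie on chromosome 11, Igfbp4 at 99041244 to 99054392 on the plus strand and Igfbp3 at 7206086 to 7213923 on the minus strand.

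Igfbp7, which encodes a matrix protein with low affinity for IGFs that is made by blood vessel cells among others, was the gene with the lowest level and lay in the other direction. It was at 4.35, 5.14 and 4.75 scaled RPKM in Cdyl-Het and at 4.09, 2.95 and 2.86 in Cdyl-KO. The groups did not overlap, though Cdyl-KO replicate 1 lay close to the lowest Cdyl-Het library. The means were 4.75 ± 0.395 and 3.30 ± 0.687 (SD, n = 3 per group; log2 difference -0.43, 95% interval -0.71 to -0.15, limma adjusted p = 0.0745). The gene passed as lower without Cdyl-KO replicate 1 (-0.55, adjusted p = 0.0341) and in the fit of unscaled values (-0.54, adjusted p = 0.0301); the adjusted p was 0.0301 to 0.182 over all alternatives. Exons of Igfbp7 (chromosome 5, 77349240 to 77408041, minus strand) overlap exons of Polr2b, which is also listed, and whether counting used strand is not known here. Reads of the 2 genes may thus be shared.

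In these bulk libraries, fewer cells of a type and less RNA per cell cannot be told apart, and markers of several cell types moved with the binding protein genes. The 8 listed markers of the coelomic epithelium, the layer that covers the gonad, summed to 178 to 213 scaled RPKM in Cdyl-Het and 269 to 277 in Cdyl-KO, with 6 of 8 log2 differences above 0. The 7 listed early markers of ovarian supporting cells summed to 57.4 to 67.9 and 93.2 to 99.2, with 6 of 7 above 0, and the 14 listed interstitial and mesenchymal markers to 224 to 239 and 240 to 251, with 9 of 14 above 0. The first 2 sums were higher in Cdyl-KO, as Igfbp2 and Igfbp5 were. The interstitial sum differed by less than that of all listed genes, which was 188000 to 190000 scaled RPKM in Cdyl-Het and 204000 to 220000 in Cdyl-KO, and the median log2 difference of its markers was 0.12 with scaling and -0.02 without. The 10 listed endothelial markers summed to 38.9 to 41.6 in Cdyl-Het and 24.4 to 28.1 in Cdyl-KO, with 10 of 10 below 0, and the 7 listed early Sertoli markers to 94.6 to 133 and 48.6 to 66.5, with 6 of 7 below 0. The early Sertoli marker above 0, Nr0b1, passed the threshold as higher in Cdyl-KO. The endothelial and early Sertoli sums were lower in Cdyl-KO, as Igfbp7 was in direction. The 6 listed globin genes of the blood list ranged from 51.8 to 260 and from 55.1 to 160, and the 7 listed mesonephric epithelium markers from 15.9 to 21.9 and from 18.3 to 22.6, with overlapping groups and with 6 of 6 and 5 of 7 log2 differences below 0. Over all 11736 genes, 5746 log2 differences were above 0 and 5990 below 0. None of these listed markers was at 0 in any library, and the part of these cell types in the results was not tested.

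The make-up of the binding protein transcripts was compared as shares, for which 3 against 3 libraries cannot reach the threshold. As a share of the summed RPKM of the 5 genes within a library, which does not depend on the scaling between libraries, Igfbp5 held 51.7%, 49.9% and 49.6% in Cdyl-Het replicates 1, 2 and 3 and 58.3%, 58.6% and 57.4% in the same replicates of Cdyl-KO. Igfbp5 thus held a larger share in every Cdyl-KO library, by 7.68 percentage points on average. The share of Igfbp4 was lower, 31.7% ± 0.847 against 26.0% ± 0.599 (SD, n = 3 per group), as were those of Igfbp3 (5.71% ± 0.186 against 4.31% ± 0.357) and Igfbp7 (2.01% ± 0.244 against 1.06% ± 0.202). Each of these 4 shares did not overlap between groups, with an exact two-sided permutation p of 0.1, the smallest that 3 against 3 libraries allow (0.175 adjusted over the 7 shares compared). The 5 shares make up the whole sum, so they are tied to one another and are not separate results. In level, Igfbp4, Igfbp3 and Igfbp7 did not pass the threshold (log2 differences 0.10, -0.02 and -0.43). With values multiplied by gene length, the difference in share of Igfbp7 shrank from -0.94 to -0.25 percentage points and that of Igfbp2 from 0.38 to 0.01, while those of Igfbp5 and Igfbp4 were 7.24 and -6.01. The share of Igfbp2 was 10.2% ± 0.293 and 10.6% ± 0.451, with overlapping groups (exact permutation p = 0.3). The summed level of the 5 genes was 252, 239 and 222 scaled RPKM in Cdyl-Het, against 315, 309 and 304 in Cdyl-KO, also without overlap (exact permutation p = 0.1). The mean sums were 238 in Cdyl-Het and 310 in Cdyl-KO, and the means of Igfbp5 alone were 120 and 180. The sum is thus not a result separate from that of Igfbp5.

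**Figure D2:**
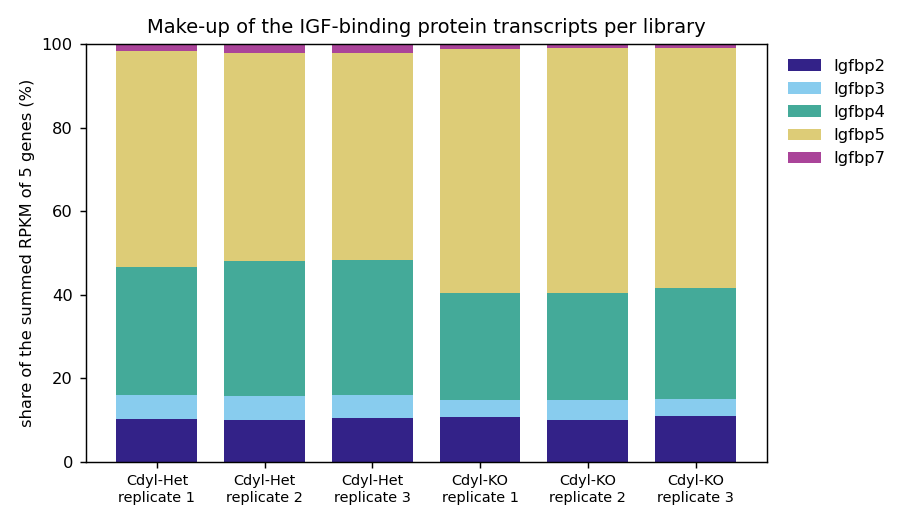
Share of each of 5 IGF-binding protein genes in their summed RPKM (vertical axis, percent) in each of the 6 libraries (stacked bars). The Igfbp5 segment takes 49.6% to 51.7% in Cdyl-Het and 57.4% to 58.6% in Cdyl-KO, and the Igfbp4 segment is smaller in Cdyl-KO.

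Neither receptor gene passed the threshold. Igf1r, which encodes the receptor for IGF1 and IGF2, was at 11.3, 11.3 and 10.8 scaled RPKM in Cdyl-Het and at 12.3, 12.5 and 12.5 in Cdyl-KO. The Cdyl-KO libraries were slightly higher without overlap, at means of 12.4 ± 0.125 against 11.1 ± 0.319 (SD, n = 3 per group; log2 difference 0.15, 95% interval 0.04 to 0.26, limma adjusted p = 0.104). Before scaling the groups overlapped, at 11.4 to 11.9 in Cdyl-Het and 11.7 to 12.1 in Cdyl-KO, and the difference was 0.02. Insr, which encodes the insulin receptor, was at 5.27, 5.65 and 4.65 in Cdyl-Het and at 5.61, 5.48 and 6.12 in Cdyl-KO. Its groups overlapped, and its log2 difference of 0.12 had a 95% interval of -0.06 to 0.31 (adjusted p = 0.363). Within a library, Insr made up 31.7% ± 1.59 of the sum of the 2 receptor genes in Cdyl-Het and 31.6% ± 1.21 in Cdyl-KO (exact permutation p = 0.8), so the Igf1r transcript was the more abundant per length in all 6 libraries. Igf1r lies on chromosome 7 (67952827 to 68233668, plus strand) and Insr on chromosome 8 (3122061 to 3279617, minus strand), and neither shares exons with another annotated gene.

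Of the ligands, Igf1 (chromosome 10, 87858265 to 87937042, plus strand) had non-overlapping groups. It was at 6.29, 5.50 and 4.47 scaled RPKM in Cdyl-Het and at 8.22, 7.26 and 6.64 in Cdyl-KO. Each Cdyl-KO library was above each Cdyl-Het library on scaled values, but the spread within each group was wide. Before scaling the groups overlapped, at 4.72 to 6.56 in Cdyl-Het and 6.21 to 7.85 in Cdyl-KO. The scaled means were 5.42 ± 0.911 and 7.37 ± 0.800 (SD, n = 3 per group). They did not pass the threshold (log2 difference 0.39, 95% interval 0.11 to 0.67, limma adjusted p = 0.0924). Igf2, the main IGF gene of the embryo and a paternally expressed imprinted gene, was at 114, 109 and 101 in Cdyl-Het and at 132, 137 and 143 in Cdyl-KO. It rose (log2 change 0.35, SE 0.06, adjusted p = 0.0228), with all Cdyl-KO libraries above the Cdyl-Het libraries, but the call was lost in most fits that left out a library and under 2 other scalings. The adjusted p was 0.0338 without Cdyl-Het replicate 1, 0.0741 and 0.0715 without Cdyl-Het replicates 2 and 3, and 0.0573, 0.0703 and 0.0714 without Cdyl-KO replicates 1, 2 and 3. It was 0.0545 without scaling, 0.239 with quantile normalization and 0.0975 with the replicate number as a block (0.0212 to 0.239 over all alternatives). Exons of Igf2 overlap those of Igf2os and Gm49394. Igf2r, whose product removes IGF2 from the cell surface, was at 32.6, 33.1 and 30.8 in Cdyl-Het and at 34.4, 36.3 and 33.9 in Cdyl-KO (log2 difference 0.11, adjusted p = 0.230), and its sign turned without scaling (-0.02). The insulin genes Ins1 and Ins2 and the insulin receptor-related gene Insrr were not among the 11736 listed genes, so they could not be compared.

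The adaptor genes Irs1 and Irs2, whose products couple the activated receptors to PI3K, had overlapping groups. Irs1 was at 8.18, 8.83 and 7.82 scaled RPKM in Cdyl-Het and at 8.72, 8.80 and 8.31 in Cdyl-KO (log2 difference 0.05, 95% interval -0.09 to 0.19, limma adjusted p = 0.619). Irs2 was at 13.0, 15.8 and 15.0 in Cdyl-Het and at 12.7, 13.4 and 15.1 in Cdyl-KO (log2 difference -0.08, 95% interval -0.29 to 0.13, adjusted p = 0.618). Irs1 lies on chromosome 1 (82233101 to 82291416) and Irs2 on chromosome 8 (10984681 to 11008458), both on the minus strand. Exons of Irs1 overlap those of Gm9747, and exons of Irs2 those of 9530052E02Rik, neither of which is listed. Neither gene separated the groups, and the sign for Irs1 turned without scaling (-0.07). Irs2 made up 63.7% ± 2.14 of the sum of both adaptor genes in Cdyl-Het and 61.4% ± 2.75 in Cdyl-KO (SD, n = 3 per group; exact permutation p = 0.3).

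The order of the levels per length was the same in both groups: Igfbp5, Igfbp4, Igfbp2, Irs2, Igfbp3, Igf1r, Irs1, Igf1, Insr and Igfbp7. In Cdyl-Het, the ranges of Irs2 and Igfbp3 overlapped, as did those of Igf1 and Insr and of Insr and Igfbp7, so these neighbours in the order did not differ beyond their spread. In Cdyl-KO, Irs2 overlapped Igfbp3 and Igfbp3 overlapped Igf1r, while Igf1, Insr and Igfbp7 were apart. The means spanned 4.75 to 120 scaled RPKM in Cdyl-Het and 3.30 to 180 in Cdyl-KO. If the union exon lengths of GENCODE M21 were those used, the lowest level, that of Igfbp7, rested on about 146 to 268 reads per library and the highest, that of Igfbp5, on about 28300 to 46000.

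The wider axis was described with a list of 70 genes, of which 58 were listed in the tables. Of the 58, 4 rose and 2 fell, while the remaining 52 missed the threshold, beside the 7.92% of all genes that were called, and the median log2 difference was 0.03. Only Igfbp5, Igfbp2 and 1 gene that fell, Dok1, kept their call in all 14 alternative fits. The number called was 3 when replicate 2 or replicate 3 of either group was left out, and without scaling 2 were higher and 6 lower. Among the other adaptors, Dok1, which encodes a docking protein that dampens tyrosine kinase signalling, was at 4.27, 4.19 and 4.60 scaled RPKM in Cdyl-Het and at 2.89, 2.51 and 2.82 in Cdyl-KO. It fell in every Cdyl-KO library (log2 change -0.52, SE 0.07, limma adjusted p = 0.0102; 0.00620 to 0.0464 over all alternatives). Htra1, a secreted protease that can cleave IGF-binding proteins, was at 5.44, 7.11 and 6.36 in Cdyl-Het and at 4.69, 3.78 and 3.57 in Cdyl-KO. It fell as well (log2 change -0.54, SE 0.11, adjusted p = 0.0336). The call was lost at 0.0998 and 0.115 without Cdyl-Het replicates 2 and 3 and at 0.0902 and 0.0892 without Cdyl-KO replicates 2 and 3. It was also lost at 0.103 with the replicate number as a block (0.0175 to 0.115 over all).

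Of 15 listed mTOR and FOXO effectors 0 passed, beside 7.92% of all genes, a share at which so short a list would hold few calls. Without scaling, 2 of the 15 were called lower. In the reported fit the smallest p was that of Gsk3a, a kinase inhibited by AKT (13.3 ± 0.389 and 15.5 ± 1.24, log2 difference 0.21, limma adjusted p = 0.104). Of the 3 genes of Igf2 mRNA-binding proteins 0 passed as well, the smallest p being that of Igf2bp1 (18.5 ± 0.999 and 20.1 ± 0.738, log2 difference 0.11, adjusted p = 0.273), whose sign turned without scaling (-0.02).

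**Figure D3:**
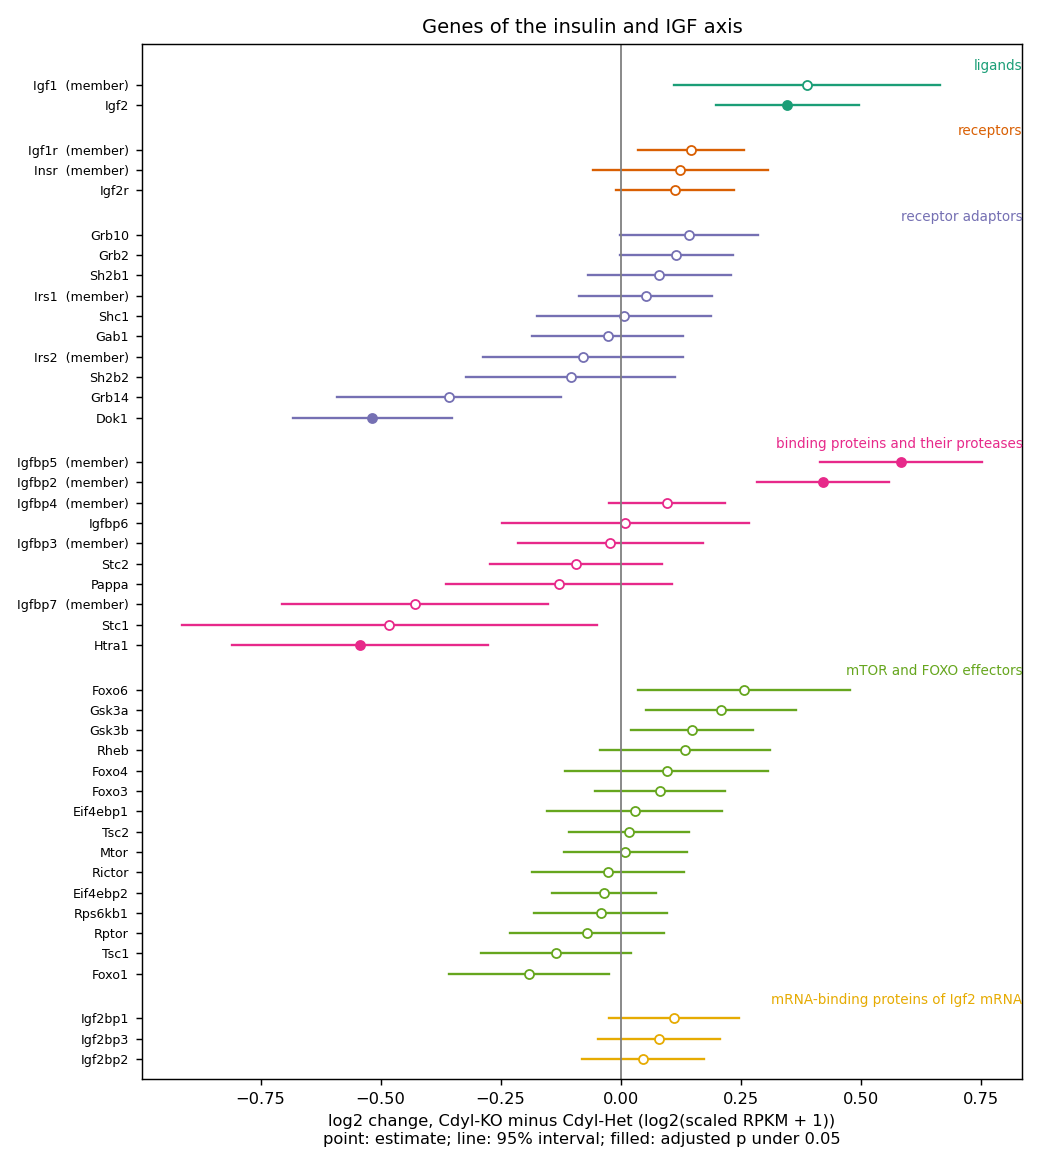
Log2 difference, Cdyl-KO minus Cdyl-Het, of listed genes of the insulin and IGF axis in the roles named at the right (horizontal axis, on the log2(scaled RPKM + 1) scale); points are estimates, lines 95% intervals, filled points genes past the threshold, and the 10 genes described above are marked as members. The filled points are Igf2, Igfbp2 and Igfbp5 above 0 and Dok1 and Htra1 below 0.

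Among all genes, those whose log2 values over the 6 libraries were most like those of Igfbp5 were Pcdh18, a protocadherin gene (Pearson r = 0.9985), Dclk1, a kinase gene of the doublecortin family (r = 0.9983), and Kat6b, a histone acetyltransferase gene (r = 0.9971). The 6 libraries fall into 2 groups that differ in Igfbp5, so this likeness largely reflects the difference between the groups and is given as a description. Pcdh18 was at 24.8, 21.4 and 19.4 scaled RPKM in Cdyl-Het and at 36.6, 35.4 and 34.2 in Cdyl-KO, with the same order of libraries within each group as Igfbp5.

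**Figure D4:**
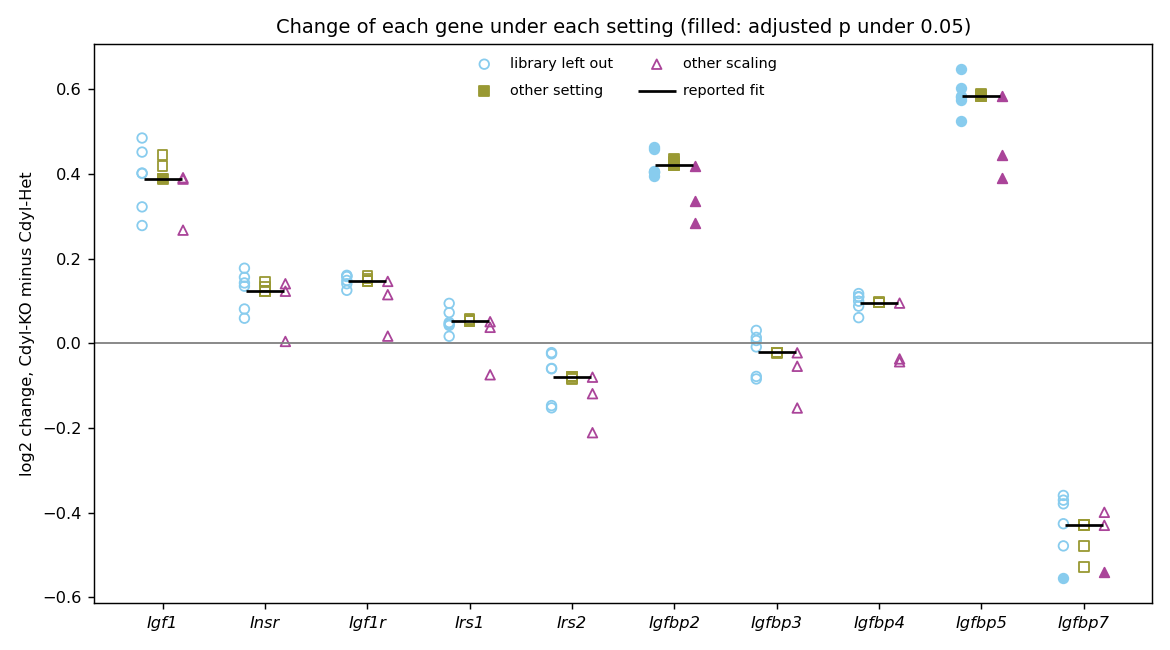
Log2 difference of each of the 10 genes (vertical axis) under the reported fit (black line) and 14 alternatives: each library left out (circles), another scaling (triangles) or another pseudocount, filter, variance prior or replicate block (squares); filled symbols have an adjusted p under 0.05. Igfbp2 and Igfbp5 are filled throughout, at 0.28 to 0.65, and Igfbp7 stays below 0, at -0.55 to -0.36.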

How the data were processed

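The values deposited by the authors, for 11736 gene symbols in each library, carry no unit and were taken as RPKM, made from read counts normalized for gene length and depth, since they were not whole and summed to 191953 to 209917. STAR, featureCounts 1.6.4 (Subread) and mm10 come from the submitters' processing notes; the annotation, strand setting, gene filter and step to RPKM were not given in the sources used here. Per the labels' protocols, total RNA went into a stranded pico-input kit.

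Values were divided by a trimmed mean of log ratios (30% of ratios and 5% of levels trimmed at each end), and log2(scaled RPKM + 1) was fitted by group alone in limma 3.58.1 (R 4.3.3; trended empirical Bayes, Benjamini-Hochberg over all genes, threshold 0.05). The fit was tested on simulated data. Shares were compared by exact two-sided permutation tests. Depth came from single-exon genes, whose values times length fell on whole reads (tolerance 0.02, values up to 200 reads) for 84.8% to 87.6%. Positions and lengths are from GENCODE M21, where 98.32% of symbols matched 1 gene; promoters are from RefSeq (GRCm38.p6), which held 9 of the 10 genes.

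The members and lists were chosen with earlier results of these data known. Named were the 10 genes, listed ligands and receptors, and in each other sublist the genes past the threshold or, with none, that with the smallest p, beside Cdyl, Nr5a1, Sry, neighbours of the 10 genes, and the 3 genes most like the called member with the largest change. Alternatives were other scalings, pseudocounts of 0.1 and 0.5, a minimum mean of 2 scaled RPKM, no variance trend, a replicate block, leaving out each library and, for shares, values times gene length. Some results that this rule would name are not reported here.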

Additional observations from a re-analysis of the deposited data

How the results depend on the processing

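Without scaling, 1863 genes were called (305 higher, 1558 lower) against 929 (566 and 363), 1 of the 10 genes was lower (Igfbp7), and 2 axis genes were higher and 6 lower. Leaving out a library gave 260 to 691 calls (197 to 417 higher, 61 to 274 lower), 2 to 3 among the 10 genes (2 higher in each, 0 to 1 lower) and 3 to 5 in the axis list (2 to 3 higher, 1 to 3 lower). Same-numbered libraries of the 2 groups did not deviate together (correlations of -0.05, -0.27 and -0.05), and no library was most like the one of its own number. With 3 libraries a group, these correlations cannot decide whether the numbers pair the libraries, which the labels do not say. With the replicate number as a block, 348 genes were called (217 higher, 131 lower), 3 of the 10 genes were higher, with Igf1 added (adjusted p = 0.0489), and 1 axis gene was lower. Igf2 (adjusted p = 0.0975), Htra1 (0.103) and Tns3 (0.118) lost their calls in this fit. Log2 differences turned in sign without scaling for Irs1 (-0.0742), Igfbp4 (-0.0435), Igf2r (-0.0243) and Igf2bp1 (-0.0233), and with quantile normalization for Igfbp4 (-0.0368). That of Igfbp3 was -0.0840 to 0.0306 when a library was left out, above 0 without the first or second Cdyl-Het library or the third of Cdyl-KO. Leaving out a library gave differences in share of -0.99 to 0.59 percentage points for Insr, where the sign turned without replicate 2 of Cdyl-Het (0.59) or of Cdyl-KO (0.34), -3.88 to -1.27 for Irs2 and 7.27 to 8.33 for Igfbp5. The causes were not tested. With 3 libraries a group, shares cannot reach an exact permutation p below 0.1.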
